A study of Saccharomyces cerevisiae with 14 samples.

Results

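The 8 genes described here, ARG1, ARG2, ARG3, ARG4, ARG7, ARG8, CPA1 and ORT1, encode enzymes of arginine synthesis and a carrier in budding yeast, Saccharomyces cerevisiae. They were found by gene symbol in the annotation of the arrays, and they are 8 of the 5548 genes that the arrays name. The group was chosen by measured values, because ARG1 and ARG3 lay higher in the null strain while ARG4 lay lower in PB1. Differences of the null strain and of PB1 are therefore given as a description, with no test. ARG5,6, which belongs to the same pathway, was not analysed here.

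The study compared strains to find how genome-wide transcription relies on parts of TAF1, a scaffold subunit of TFIID, the complex that brings TBP to many promoters. PolyA RNA of each strain was hybridised with RNA of the reference strain yjdi363 on 2-colour arrays, 14 arrays in 7 groups of 2. Array 1 of a group carried the strain in Cy5 and array 2 carried it in Cy3. The groups were FHT-WT1 (yjdi353, the strain whose label names the wild type), DT1 (yjdi355), TF1 (yjdi357), HT4 (yjdi359), PB1 (yjdi361), the null strain (yjdi381), and a homotypic pair that carried the reference strain in both channels. All strains, the reference included, were grown on 3% raffinose in CSM that lacked leucine until the OD600 reached 0.7, received 2% galactose for 30 min at 25 °C and were then held at 37 °C for 45 min. The labels do not say what the codes DT1, TF1, HT4 and PB1 alter in the protein. They also do not give whether a pair of arrays represents separate cultures, so the p-values rest on the spread between arrays alone, and that spread may be technical.

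Yeast makes arginine from glutamate. Inside the mitochondrion ARG2 acetylates glutamate, ARG8 later makes acetylornithine, ARG7 releases ornithine from it, and ORT1 carries the ornithine out to the cytosol. There CPA1, the small subunit of the arginine-regulated carbamoyl phosphate synthetase, supplies carbamoyl phosphate. ARG3 joins it to ornithine to give citrulline, ARG1 adds aspartate to give argininosuccinate, and ARG4 splits that into arginine and fumarate. When arginine is plentiful, a complex of ARG80, ARG81, ARG82 and MCM1 represses ARG1, ARG3 and ARG8 among others, while the activator GCN4 raises most genes of the pathway under amino acid starvation. CPA1 is also controlled in translation by a short leader peptide encoded upstream on its messenger RNA.

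Values are log2 ratios of strain to reference after each array was centred on its median, so that 0 is the level of the typical gene. The direction of the deposited ratios was not stated. It was taken as strain over reference because TAF1 stood at -3.52 and -3.46 on the null strain arrays, and every "higher" or "lower" rests on that reading. TAF1 lay between -1.06 and -0.06 in the strains other than the null and between -0.06 and 0.12 in the homotypic pair. The paired arrays of FHT-WT1 did not correlate across genes (Pearson r = -0.0059), nor did the homotypic pair (r = -0.23), against 0.51 to 0.66 in the other 5 groups. MET17, a sulphur amino acid gene that is deleted in some laboratory strains, lay between 4.00 and 5.31 on the arrays of PB1, HT4, TF1 and DT1 and between -0.39 and 0.07 in FHT-WT1, the null strain and the homotypic pair. Its part in the differences below was not tested, nor was that of the small spread of centred values in FHT-WT1 and the homotypic pair (median absolute value 0.0855 to 0.139) against the other groups (0.177 to 0.257).

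**Figure D1:**
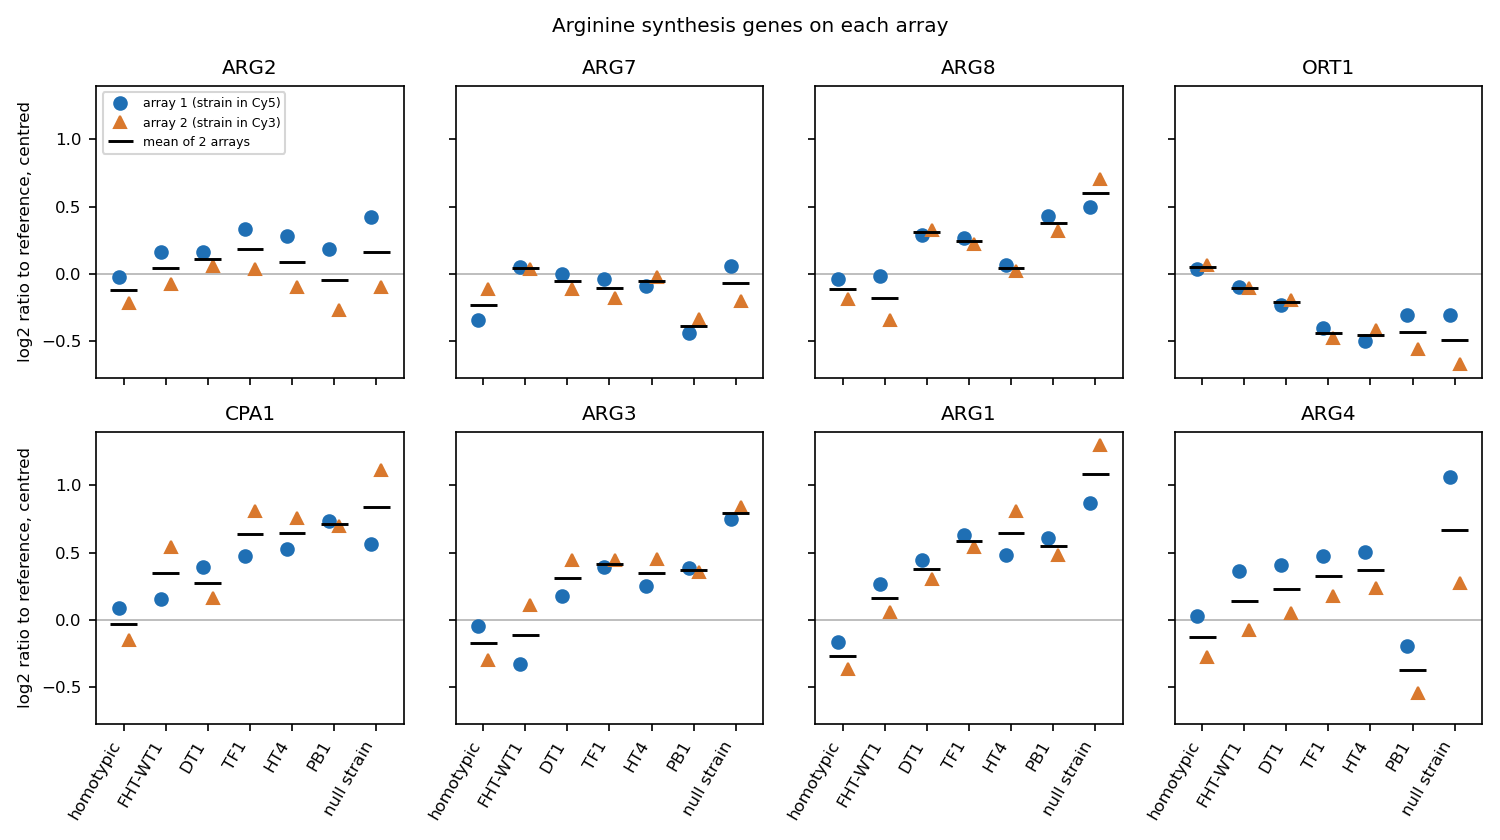
Centred log2 ratio of strain to reference (vertical axis) for each of the 8 genes in the 7 groups, with 1 point per array and a bar at the mean of the pair. The homotypic arrays carry the reference in both dyes. ARG1 rises above 0.8 on both null strain arrays, ARG4 falls below -0.1 on both PB1 arrays, and ORT1 lies below 0 on all 12 strain arrays.

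In the mitochondrial branch, ARG8, the acetylornithine aminotransferase, had a higher level in the 5 other strains than in FHT-WT1. Its centred log2 ratio was -0.02 and -0.34 in FHT-WT1, 0.29 and 0.33 in DT1, 0.27 and 0.22 in TF1, 0.07 and 0.02 in HT4, 0.43 and 0.32 in PB1, 0.49 and 0.70 in the null strain, and -0.04 and -0.19 in the homotypic pair. Every array of the 5 other strains lay above both FHT-WT1 arrays and both homotypic arrays, with HT4 closest to them.

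ARG2, the acetylglutamate synthase that begins the pathway, had group means between -0.12 (homotypic) and 0.18 (TF1). It was higher on array 1 than on array 2 in 7 of 7 groups, by 0.31 on average. The arrays numbered 1 and 2 differ in dye and in their title numbers, and which of these goes with the difference was not tested. ARG7, the ornithine acetyltransferase that returns the acetyl group to glutamate, stayed between -0.20 and 0.06 on the arrays of all groups except PB1 (-0.44 and -0.33) and the homotypic pair (-0.34 and -0.11). In PB1 it lay below FHT-WT1 (0.05 and 0.04) but overlapped the homotypic arrays.

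ORT1, the ornithine carrier, lay lower in the 5 other strains than in FHT-WT1. It stood at -0.10 and -0.11 in FHT-WT1, -0.23 and -0.19 in DT1, -0.40 and -0.47 in TF1, -0.50 and -0.42 in HT4, -0.31 and -0.56 in PB1, -0.30 and -0.67 in the null strain, and 0.04 and 0.07 in the homotypic pair. All arrays of the 5 strains lay below both FHT-WT1 arrays, and the share of all genes that did so was not counted. DT1 was the nearest of the 5 strains, and TF1, HT4, PB1 and the null strain overlapped one another.

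In the cytosolic steps, ARG1, the argininosuccinate synthase, showed the highest level of the group. Its centred log2 ratio was 0.27 and 0.06 in FHT-WT1, 0.45 and 0.31 in DT1, 0.63 and 0.54 in TF1, 0.48 and 0.81 in HT4, 0.61 and 0.48 in PB1, 0.87 and 1.30 in the null strain, and -0.17 and -0.37 in the homotypic pair. The null strain pair lay above every other array (mean 1.08 ± 0.30, SD, n = 2, 2.12 times the reference). The other strains followed as HT4 (0.65), TF1 (0.58), PB1 (0.55) and DT1 (0.38), and the arrays of neighbouring groups in that order overlapped except those of PB1 and DT1.

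ARG3, the ornithine carbamoyltransferase, ranged from -0.33 and 0.11 in FHT-WT1 through 0.17 and 0.44 in DT1, 0.39 and 0.44 in TF1, 0.25 and 0.45 in HT4, and 0.38 and 0.35 in PB1 to 0.75 and 0.84 in the null strain, with -0.04 and -0.30 in the homotypic pair. DT1, HT4 and PB1 overlapped one another, and TF1 overlapped DT1 and HT4 but lay just above PB1. The null strain lay above them all, and the FHT-WT1 arrays lay below them but differed from each other (SD 0.31). The share of all genes separated in this way was not counted.

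ARG4, the argininosuccinate lyase, was at 0.36 and -0.08 in FHT-WT1, 0.41 and 0.05 in DT1, 0.47 and 0.18 in TF1, 0.51 and 0.23 in HT4, -0.19 and -0.55 in PB1, 1.06 and 0.28 in the null strain, and 0.03 and -0.28 in the homotypic pair. Array 1 was the higher of the pair in 7 of 7 groups, by 0.40 on average. PB1 was the only group with both arrays below both FHT-WT1 arrays, and its array 1 overlapped the homotypic pair.

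CPA1 stood at 0.15 and 0.54 in FHT-WT1, 0.39 and 0.16 in DT1, 0.47 and 0.81 in TF1, 0.53 and 0.76 in HT4, 0.73 and 0.69 in PB1, 0.57 and 1.11 in the null strain, and 0.09 and -0.15 in the homotypic pair. PB1 and the null strain lay above both FHT-WT1 arrays, while DT1, TF1 and HT4 overlapped them. All arrays of the 6 strains lay above the homotypic pair as deposited, and the share of all genes that did so was not counted.

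The choice of the genes does not name DT1, TF1 and HT4, but it does not say what ARG4 in PB1 was set against. These strains may have served there. They were tested against FHT-WT1 with limma, as 1 fit over 5535 genes with a term for the dye and Benjamini-Hochberg adjustment at 0.05, two-sided. In the mean of the 3 strains, ARG3 and ARG8 were higher than in FHT-WT1 and no member was lower. ARG3 differed by 0.47 ± 0.12 (log2, SE, 1.38-fold, adjusted p = 0.028) and was above both FHT-WT1 arrays on 6 of 6 arrays. ARG8 differed by 0.38 ± 0.10 (1.30-fold, adjusted p = 0.0349), again on 6 of 6 arrays. These are 2 of 8 members, where 3.94% of all genes were higher and 6.72% were lower in that comparison. The share of all genes with all 6 arrays on 1 side of FHT-WT1 was not counted.

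The other members did not pass in the pooled comparison. ARG1 differed by 0.37 ± 0.13 (adjusted p = 0.091) and ORT1 by -0.27 ± 0.10 (adjusted p = 0.115), with all 6 arrays on 1 side of FHT-WT1 in both. ARG4 (0.17), CPA1 (0.17), ARG2 (0.09) and ARG7 (-0.12, below FHT-WT1 on 6 of 6 arrays) had adjusted p-values between 0.324 and 0.602, and the signs of ARG4 and CPA1 turned with the arrays scaled to 1 spread, CPA1 also under quantile normalisation and ARG2 with the values as deposited. The median difference of the 8 members was 0.17 against -0.0106 for all genes. This comparison shares its FHT-WT1 arrays with the differences that chose the members.

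Both calls depended on the processing and on single arrays. Neither remained with the values as deposited, where adjusted p was 0.354 for ARG3 and 0.51 for ARG8, or with arrays scaled to 1 spread (0.121 and 0.0653), quantile normalised (0.139 and 0.0824) or without the dye term (0.111 and 0.118). Without FHT-WT1 array 1 the ARG3 difference was 0.27 (adjusted p = 0.318), and without array 2 it was 0.66 (0.037). For ARG8 the values were 0.53 (0.0512) and 0.23 (0.361). ARG8 also missed the threshold in every fit that left out an array of DT1, TF1 or HT4 (adjusted p 0.0521 to 0.0749), and ARG3 missed it without TF1 array 1 (0.0644), DT1 array 2 (0.0661), TF1 array 2 (0.055) or HT4 array 2 (0.0513). ARG1 passed it without null strain array 1 (0.0464) or array 2 (0.0465).

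Singly, no member was called in any of the 3 strains, and the members below an unadjusted p of 0.05 numbered 2 of 8 in DT1, 4 of 8 in TF1 and 3 of 8 in HT4. At that threshold lay 965, 1120 and 1583 of all 5535 genes, so the counts in DT1 and HT4 were near the background. In DT1, where 0.199% of all genes were higher and 0.705% lower, ARG8 differed from FHT-WT1 by 0.49 (adjusted p = 0.09) and ARG3 by 0.42 (0.179). In TF1, with 1.1% of genes higher and 2.62% lower, ARG3 differed by 0.53 (0.0693), ARG8 by 0.42 (0.0846), ARG1 by 0.42 (0.177) and ORT1 by -0.34 (0.167). In HT4, with 4.9% higher and 6.81% lower, ARG1 differed by 0.48 (0.0753), ARG3 by 0.46 (0.0626) and ORT1 by -0.35 (0.089), while ARG8, at 0.22, had an adjusted p of 0.262. The F test of differences among the 3 strains called 0 of the 8 members and 0% of all genes in limma, with 373 genes and no member under an unadjusted p of 0.05.

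**Figure D2:**
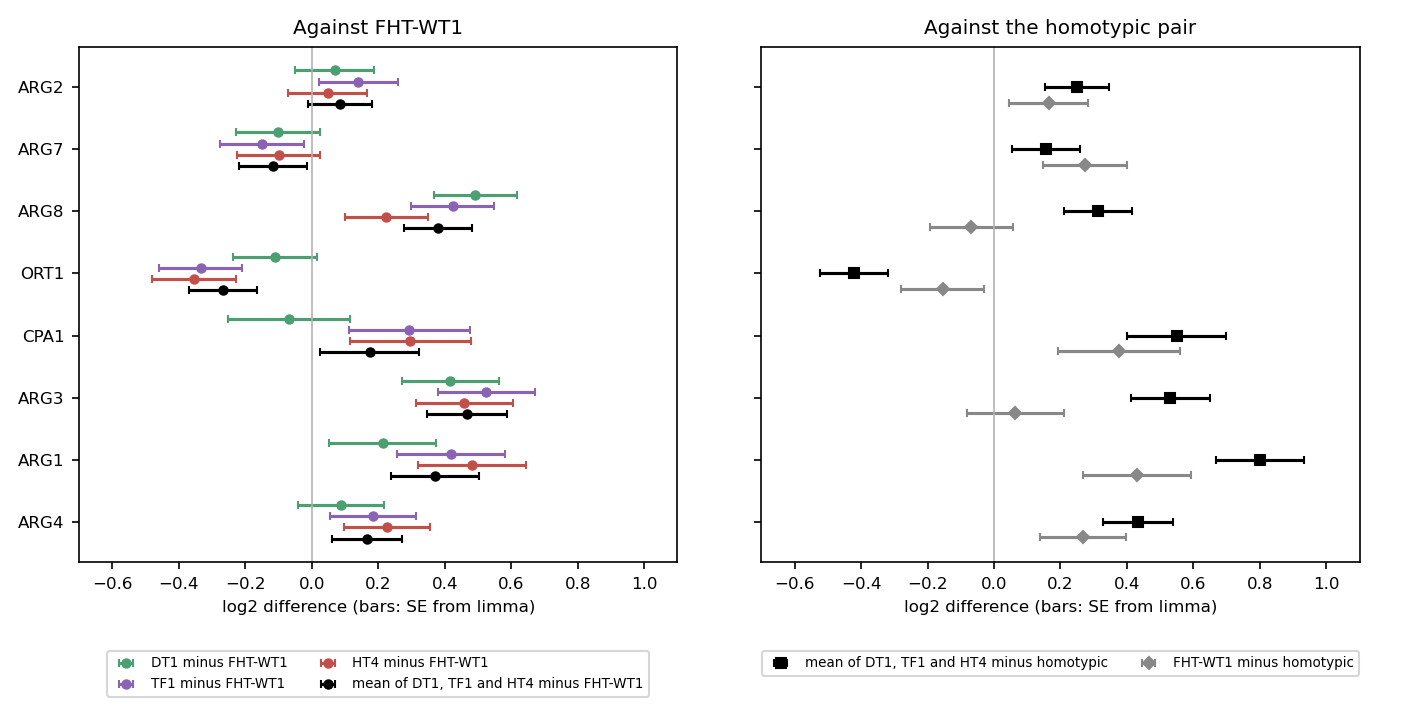
Differences in centred log2 ratio with their standard errors from limma, against FHT-WT1 (left) and against the homotypic pair (right). ARG3 and ARG8 lie to the right of 0 against FHT-WT1 in all 3 strains. Against the homotypic pair, ARG1 has the largest difference (0.80) and ORT1 is the only one of the 8 below 0 for the pooled strains.

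Against the reference hybridised with itself, the pooled DT1, TF1 and HT4 strains differed in 6 of the 8 members, a comparison that was added after the data were seen. ARG1 was higher by 0.80 ± 0.13 (1.74-fold, adjusted p = 0.00147), CPA1 by 0.55 ± 0.15 (0.0183), ARG3 by 0.53 ± 0.12 (0.00756), ARG4 by 0.43 ± 0.11 (0.0113) and ARG8 by 0.31 ± 0.10 (0.0413). ORT1 was lower, at -0.42 ± 0.10 (1.34-fold, adjusted p = 0.0113). All 6 strain arrays lay on the called side of both homotypic arrays for each of these genes. The share of all genes that did so was not counted. The same arrays gave the calls, so the separation adds no separate evidence. ARG2 (0.25, adjusted p = 0.0751) and ARG7 (0.16, 0.278) did not pass. In that comparison 11.8% of all genes were higher and 14.9% lower, and the median of the members was 0.37 against 0.00154 for all genes.

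How homotypic array 2 was turned is not stated. With its sign turned, ORT1 alone was called and ARG1 differed by 0.44 (adjusted p = 0.0676), the only setting tried in which ARG1 was not called. ARG1 and ORT1 were called with the values as deposited, where ARG8 stood at -0.02, and ARG1, ARG3 and ORT1 without the dye term. With arrays scaled to 1 spread all 8 members were called, ARG2 and ARG7 included, beside 1284 of all genes. Quantile normalisation called 7 members, beside 1215 of all genes. Leaving out homotypic array 1 left ARG1, ARG3 and CPA1, and leaving out array 2 left ARG1. ARG8 was also lost without any 1 of the DT1, TF1 and HT4 arrays (adjusted p 0.055 to 0.0811).

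No member was called between FHT-WT1 and the homotypic pair by limma. Of all genes 0% were called higher and 0% lower, with 274 genes at an unadjusted p under 0.05. ARG1 was the member with the smallest unadjusted p, and it differed by 0.43 ± 0.16 (adjusted p = 0.934). It lay above the homotypic pair on both FHT-WT1 arrays.

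In the null strain, the enzymes ARG1, ARG3, ARG8 and CPA1 lay higher than in FHT-WT1 on both arrays. Against FHT-WT1, the mean centred log2 ratio was higher by 0.92 for ARG1 (0.60 to 1.24 over the 4 pairings of arrays), by 0.90 for ARG3 (0.63 to 1.17), by 0.78 for ARG8 (0.51 to 1.04) and by 0.49 for CPA1 (0.03 to 0.96). ARG4 was higher by 0.53, but its pairings ran from -0.09 to 1.14. ORT1 was the only member whose arrays lay wholly below those of FHT-WT1, by -0.39 (-0.58 to -0.19), and ARG2 (0.12) and ARG7 (-0.12) overlapped. Thus 4 members lay wholly above and 1 wholly below, where 18.2% and 21.1% of all genes did so, and nothing is read from those counts since this difference served in the choice. With the arrays scaled to 1 spread the ARG1 difference was 0.58, and CPA1 was at 0.16, and at 0.17 under quantile normalisation.

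PB1 split the group. ARG8 was higher than in FHT-WT1 by 0.55, ARG3 by 0.48, ARG1 by 0.38 and CPA1 by 0.37, each on both arrays. ARG4 was lower by -0.51 (-0.91 to -0.11 over the pairings), ARG7 by -0.43 and ORT1 by -0.33, while ARG2 (-0.09) overlapped. These are 4 members wholly above and 3 wholly below FHT-WT1, beside 19.6% and 23% of all genes. Against the mean of DT1, TF1 and HT4, PB1 differed by 0.01 in both ARG1 and ARG3, so its levels of these 2 genes were close to those of the other construct strains. ARG4 (-0.68) and ARG7 (-0.31) lay lowest on that scale, and CPA1 (0.19) and ARG8 (0.18) lay highest. On that scale 4 of 8 members were above 0 when centred, 2 of 8 under either rescaling and 6 of 8 with the values as deposited, so some of these signs turned. Against FHT-WT1, the direction of each PB1 difference was kept under both rescalings, although CPA1 then shrank to 0.06 with 1 spread and to 0.0038 with quantile normalisation.

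**Figure D3:**
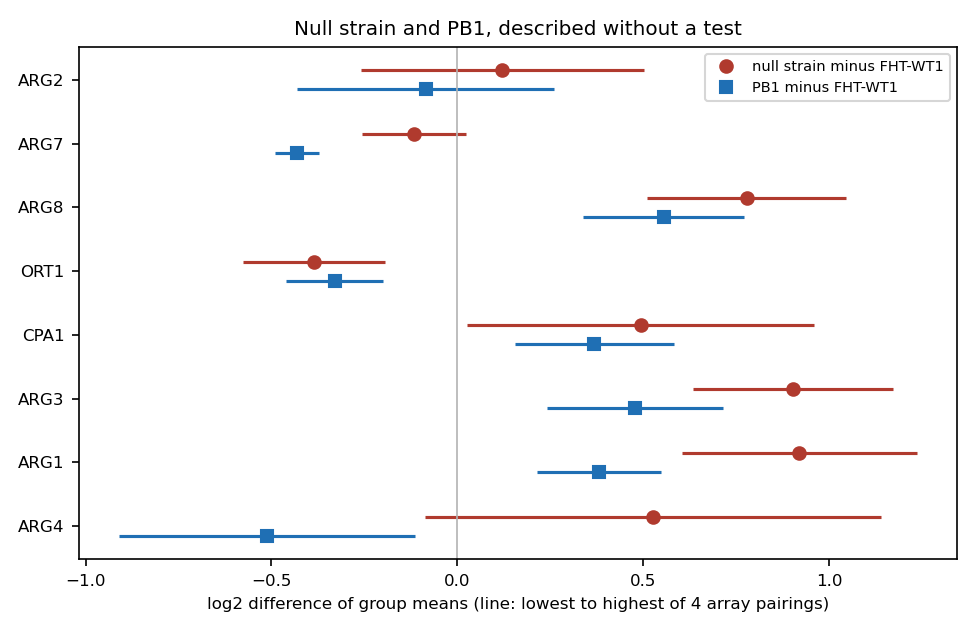
Differences of the null strain and of PB1 from FHT-WT1 in centred log2 ratio for the 8 genes, with the 4 pairings of arrays around each mean and no test. ARG1, ARG3 and ARG8 lie to the right of 0 in both strains, whereas ARG4 is at 0.53 in the null strain and at -0.51 in PB1.

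Across the 14 arrays, with the mean of each dye orientation removed, the members differed in which of the others they went with. This is a description, since the arrays share a reference and strains. The null strain and PB1 arrays, whose ARG1, ARG3 and ARG4 values chose the group, enter every r. Likeness or unlikeness of these genes may thus partly restate that choice. ARG1 went with CPA1 (Pearson r = 0.875) and ARG3 (0.874), and against ORT1 (-0.866), which also ran against CPA1 (-0.870). ARG3 and ARG8 had an r of 0.819. ARG4 went instead with ARG2 (0.754) and ARG7 (0.702), and hardly with ARG8 (0.270). The genes with the most similar profile to ARG1 over the 14 arrays were YTA6 (0.978), YOL075C (0.961), SEC3 (0.959), MSN5 (0.954) and VHS3 (0.942). For ARG3 they were ZAP1 (0.908), SEC3 (0.905), BIO3 (0.904), FPK1 (0.902) and CNM67 (0.900), and for ARG4 they were GGC1 (0.913), TRP5 (0.890), DAP2 (0.881), ATG32 (0.879) and MCP1 (0.875). No member was among these genes, and SEC3 was shared by ARG1 and ARG3.

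Among the regulators of the pathway, few genes passed a test, beside 4.9% of all genes higher in HT4 and 3.94% in the pooled strains. Of ARG80, ARG81, ARG82, MCM1 and UME6, a repressor of arginine breakdown, 1 of 5 was called in HT4 against FHT-WT1, MCM1 at 0.58 ± 0.15 (adjusted p = 0.032), and 0 of 5 in DT1, TF1 or the pooled strains by limma (1, 1 and 2 at an unadjusted p under 0.05, where 965, 1120 and 1559 of all 5535 genes lay). GCN4, GCN2 and GCN3, the core of the general amino acid control, had 0 of 3 called in every tested comparison, and 0 of 3 at an unadjusted p under 0.05. GCN4 messenger RNA stood at 0.61 and 0.68 in PB1, 0.39 and 0.32 in the null strain and -0.01 and 0.35 in FHT-WT1. It was at 0.06 and 0.19 in DT1, 0.43 and 0.42 in TF1, 0.63 and 0.10 in HT4, and 0.14 and -0.05 in the homotypic pair. The null strain arrays thus overlapped those of FHT-WT1, and both TF1 arrays lay above both null strain arrays. The activity of GCN4 is set mainly in translation, which these arrays did not measure.

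Beyond synthesis, 1 gene for uptake and 1 for breakdown were higher in the pooled strains than in FHT-WT1, as were 3.94% of all genes. CAN1, the arginine permease, was higher by 0.91 ± 0.16 (1.88-fold, adjusted p = 0.00568), as 1 of 4 permeases, and it also passed in TF1 (0.99) and HT4 (0.90). PUT1, the proline oxidase that works downstream of arginine breakdown, was higher by 0.92 ± 0.19 (1.89-fold, adjusted p = 0.0113), as 1 of 6 genes of arginine breakdown and ornithine use. CAR2, the ornithine transaminase, passed in HT4 (0.85 ± 0.20, adjusted p = 0.018), where PUT1 did too (0.86, adjusted p = 0.0328). Of 5 genes of glutamate and glutamine supply, 0 were called in DT1, TF1, HT4 or the pooled strains against FHT-WT1 by limma (1 or 2 at an unadjusted p under 0.05, beside 965 to 1583 of all 5535 genes). Against the homotypic pair as deposited, 11.8% of all genes were higher in the pooled strains. Called there were CAN1 (1.07, adjusted p = 0.000966), PUT1 (0.999, 0.00294), GLN1, the glutamine synthetase (0.66 ± 0.16, 0.0114), and GAP1, the general amino acid permease (0.40, 0.0158). Without FHT-WT1 array 2 the pooled CAN1 difference from FHT-WT1 was 0.76 and was not called. PUT1 was not called against FHT-WT1 without its array 1 or without its array 2. The HT4 calls of MCM1, CAR2, PUT1 and CAN1 were likewise lost without FHT-WT1 array 2 (differences 0.604, 0.691, 0.865 and 0.749) and with the values as deposited. They were also lost with arrays scaled to 1 spread (adjusted p 0.154 to 0.324), quantile normalised (0.223 to 0.404) or without the dye term (0.0739 to 0.179). The CAN1 call in TF1 was lost without array 1 (difference 1.14) or array 2 (0.835) of FHT-WT1. It was also lost scaled (adjusted p = 0.199), quantile normalised (0.268) or without the dye term (0.115).

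In the pooled strains against FHT-WT1, 3.94% of all genes were higher and 6.72% lower, with a median of -0.0106. Among 21 GCN4 targets of other amino acid pathways, 3 were higher in that comparison and 0 were lower, with a median of 0.20. They were ILV3 of branched chain amino acid synthesis (0.53 ± 0.10, adjusted p = 0.00785), LYS20 of lysine synthesis (0.54 ± 0.14, 0.0255) and HIS4 of histidine synthesis (0.32 ± 0.09, 0.0362), the same 3 that were called in HT4. None of the 3 was called without FHT-WT1 array 2 (adjusted p 0.133 for ILV3, 0.23 for LYS20 and 0.213 for HIS4) or with the values as deposited. The HT4 calls of ILV3, LYS20 and HIS4 were lost with the values as deposited, scaled to 1 spread, quantile normalised or without the dye term. Against the homotypic pair 9 of 21 were higher (HIS3, HIS4, TRP5, LYS1, LYS20, ILV3, ILV5, LEU4 and HOM3) and ARO4 was lower. There 11.8% of all genes were higher and 14.9% lower. PB1 and the null strain lay on opposite sides of FHT-WT1 in the median of this list, given with no test. Of the 21 genes, 18 were above FHT-WT1 in the null strain, with a median difference of 0.20 (-0.012 for all genes). In PB1 4 were above it, with a median of -0.19 (-0.007 for all genes). Against the mean of DT1, TF1 and HT4, 1 of 21 lay higher in PB1, and the median was -0.34 (0.0012 for all genes). The sign of the 3 medians of the list was the same with values as deposited, scaled or quantile normalised.

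Selectable markers differed too, beside 3.94% of all genes higher in the pooled strains than in FHT-WT1. Besides MET17, LEU2 (0.53 ± 0.12, adjusted p = 0.018) and ADE2 (0.56 ± 0.14, 0.0279) were higher in the pooled strains than in FHT-WT1, 3 of 7 markers in all, and MET17 alone of the 3 was called without FHT-WT1 array 2. In HT4 the called markers were MET17 and LEU2, in TF1 MET17 and ADE2, and in DT1 MET17. The HT4 call of LEU2 was lost with the values as deposited (adjusted p = 0.327), scaled to 1 spread (0.352), quantile normalised (0.385) or without the dye term (0.107). That of ADE2 in TF1 was lost in the same settings (0.165, 0.466, 0.527 and 0.15). MET17 stayed called in HT4 and TF1 in all of them. The part of strain background in the arginine values was not tested.

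**Figure D4:**
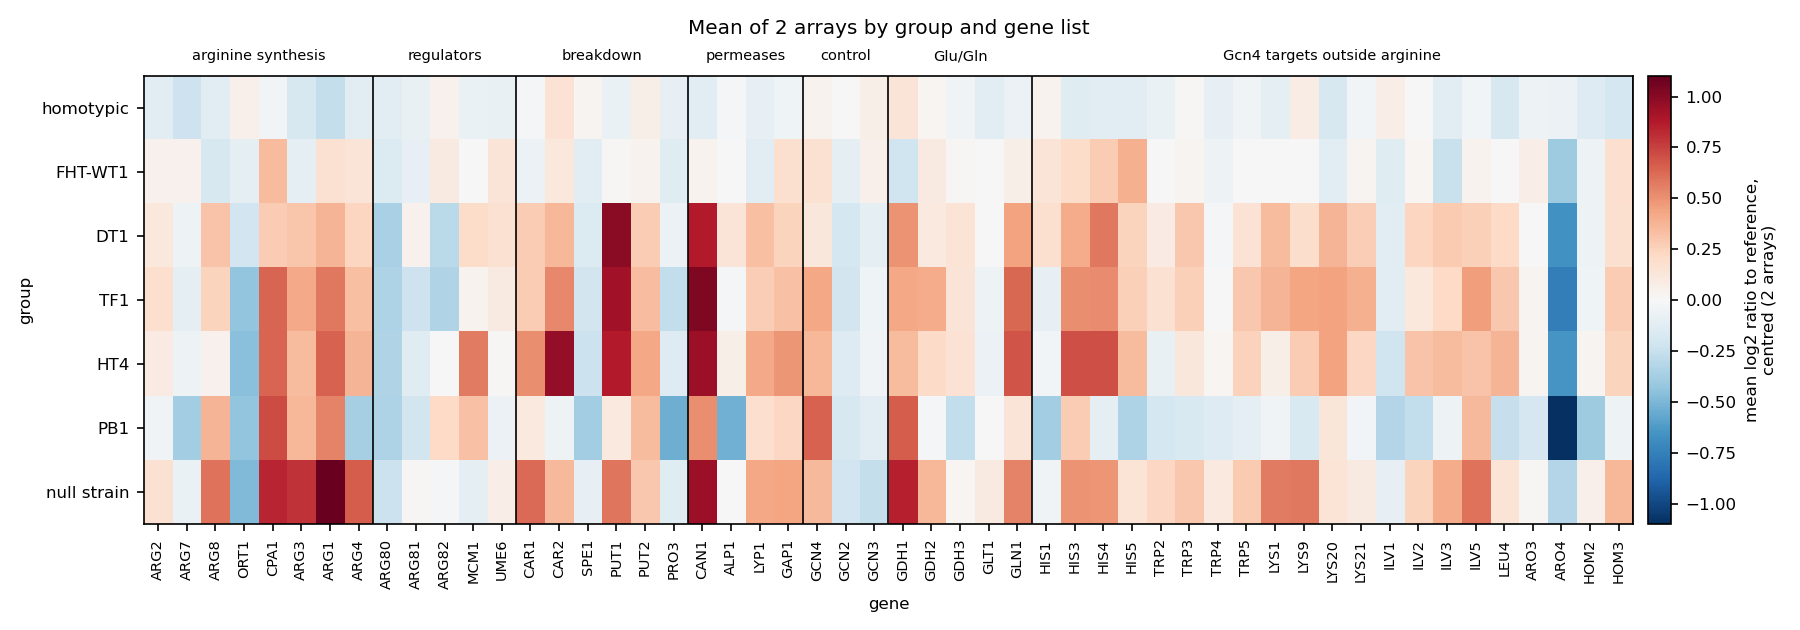
Group means of the centred log2 ratio (colour, red above the reference and blue below) for the 8 genes and the related pathway lists, with genes in columns and the 7 groups in rows. ARG4 and most GCN4 targets are lowest in the PB1 row, while ARG1 and ARG3 are highest in the null strain.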

How the data were processed

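Measured were polyA RNA ratios of 14 yeast arrays in 7 groups of 2. The authors deposited 1 log2 ratio between channels per array for 7056 features. Per the series text, the authors normalised dye swap data by mode in R and corrected them by B. subtilis RNA added by culture density. Neither step is checked here, and intensities were not used, so the number of arrays limits the precision. Of the features, 5579 carry a gene name (5548 genes, 5543 matched to the R64 annotation for names), and features of a gene were averaged. Each array was centred on its median over named genes (-0.184 to 0.412 as deposited). Genes measured on all 14 arrays, 5535 of them, were fitted in limma 3.58.1 (R 4.3.3, lmFit, eBayes) with 7 groups and a dye term, with Benjamini-Hochberg adjustment over all of them. The fit was tested on simulated data with independent noise and shifts larger than any tested difference of a member. That test does not show how well differences of the size seen here are called.

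The members and the pathway lists were chosen with earlier results of these data known. Named are all 8 members, TAF1, list genes called in a tested comparison or in lists of 3 or fewer, and the 5 genes most correlated with ARG1, ARG3 and ARG4; MET17 was named for strain background. Other genes named were chosen after their values were seen. The comparison with the homotypic pair and the rescaling of the null strain and PB1 values were added after the data were seen. Alternatives were values as deposited, arrays scaled to 1 spread, quantile normalisation, no dye term, homotypic array 2 turned, a block for the number in the array titles, 12 arrays or more with a value, and leaving out each array. No promoter or protein sequences were used here.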

Additional observations from a re-analysis of the deposited data

How the results depend on the processing

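Counts of called genes against FHT-WT1 fell under most other settings, and the cause was not tested. With the values as deposited, TF1 had 29 called genes (206 when centred), HT4 341 (648) and the pooled strains 241 (590), and the F test called 4. With arrays scaled to 1 spread the counts were 3 for DT1 (50 in the centred fit), 1 for TF1, 23 for HT4, 92 for the pooled strains and 8 for FHT-WT1 against the homotypic pair. Quantile normalisation gave 3, 2, 2, 22 and 25 in the same order. In the fit with no replicate block, which drops the term for the array number and so the dye, 4, 6, 98 and 122 genes were called in DT1, TF1, HT4 and the pooled strains, and 565 for the pooled strains against the homotypic pair (1478 with the term). Same-numbered arrays deviated together, with r from 0.31 to 0.61 over 21 pairs of groups. With homotypic array 2 turned, 26 genes were called in DT1, 94 in TF1 and 943 for the pooled strains against the homotypic pair. The number in the array titles as a random block gave 110 in DT1 and 1 in the F test, and requiring a value on 12 arrays moved no count by over 1.5 times.

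Of the members, 0 were called for the pooled strains against FHT-WT1 with the values as deposited, scaled, quantile normalised or without the block, and 1 with homotypic array 2 turned. Against the homotypic pair the 6 called members became 2 with the values as deposited, 3 without the block and 1 with that array turned. They became 8 with arrays scaled to 1 spread and 7 under quantile normalisation, where 1284 and 1215 of all genes were called. Leaving out 1 array at a time gave 1 to 80 called genes in DT1, 3 to 287 in TF1 (0 to 1 members), 159 to 800 in HT4 (0 to 2 members), 159 to 780 for the pooled strains (0 to 3 members), 0 to 8 for FHT-WT1 against the homotypic pair, 391 to 1680 for the pooled strains against that pair (1 to 6 members), and 0 to 8 in the F test.

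The sign turned only for differences that were not called, apart from ARG8 against the homotypic pair. As deposited, where the median gene moved against FHT-WT1 by -0.169 in DT1, -0.215 in HT4 and 0.21 in the homotypic pair, ARG2 was -0.0917 and ARG4 -0.0714 in DT1, ARG2 was -0.157 in HT4 and -0.0267 in the pooled strains, ARG2 was -0.0533 and ARG3 -0.154 in FHT-WT1 against the homotypic pair, and ARG2 was -0.0800, ARG7 -0.174 and ARG8 -0.0177 in the pooled strains against that pair. Scaled to 1 spread, ARG4 was -0.0469 in DT1, ARG2 -0.0258 in HT4, and ARG4 -0.00745 and CPA1 -0.0484 in the pooled strains. Quantile normalised, ARG4 was -0.0307 in DT1, ARG2 -0.0172 and CPA1 -0.0312 in HT4, and CPA1 -0.0740 in the pooled strains. With homotypic array 2 turned, FHT-WT1 differed from that pair by -0.0544 in ARG2, -0.236 in ARG3 and -0.0108 in ARG4. With 1 array left out the sign turned 6 times, in DT1 for ARG2 (-0.0513 to 0.188) and CPA1 (-0.286 to 0.149), and in FHT-WT1 against the homotypic pair for ARG3 (-0.149 to 0.277) and ARG8 (-0.222 to 0.0861).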

Other observations

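YOR302W, the short upstream reading frame on the CPA1 messenger RNA that encodes its leader peptide, has a feature of its own on the arrays and was chosen after its values were seen. Its centred log2 ratio was 0.47 and 0.20 in FHT-WT1, 0.53 and 0.20 in DT1, 0.55 and 0.61 in TF1, 0.72 and 0.53 in HT4, 0.82 and 0.36 in PB1, 0.52 and 0.97 in the null strain, and 0.15 and -0.40 in the homotypic pair. As for CPA1, all strain arrays lay above the homotypic pair as deposited, and the share of all genes that did so was not counted. The pooled DT1, TF1 and HT4 strains were higher than that pair by 0.65 ± 0.16 in limma (adjusted p = 0.0112). In that comparison 11.8% of all genes were higher. How the homotypic array at -0.40 was turned is not stated. With its sign turned, it would lie above the FHT-WT1 and DT1 arrays at 0.20, and the pooled difference would be smaller. FHT-WT1 also lay above the homotypic pair as deposited, with means of 0.34 and -0.13, and the 6 pooled arrays (mean 0.52) overlapped FHT-WT1. The 16 genes that flank the 8 members on the chromosomes, YOR302W included, had a median difference of 0.02 in the null strain against FHT-WT1 (-0.42 to 0.41) and of -0.09 in PB1 (-0.59 to 0.25), with no test. Both upper ends were YOR302W itself. The next highest were RIM9 in the null strain (0.34) and RNA14 in PB1 (0.22).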
